A study of Mus musculus with 6 samples.

Results

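The netrin-G family and its receptors on the other side of the synapse were followed in the somatosensory cortex of *Mef2c* cKO mice. They comprise 5 genes. *Ntng1* and *Ntng2* encode netrin-G1 and netrin-G2, and *Lrrc4c*, *Lrrc4* and *Lrrc4b* encode the netrin-G ligands NGL-1, NGL-2 and NGL-3. The genes were taken by symbol from the 21667 named genes in the table of each mouse, and all 5 were found in all 6 mice. RNA was sequenced from adult male mice of a mixed SVeV-129 and C57BL/6J background, 3 control and 3 *Mef2c* cKO. Both genotypes carried the floxed *Mef2c* allele on both chromosomes, so that the groups differed in Cre, which the cKO mice had as an *Emx1*-Cre knock-in and the littermate controls lacked. Replicate 1 of each genotype was 14 weeks old, and replicates 2 and 3 were 12 weeks old. *Emx1*-driven Cre acts from embryonic life in most excitatory neurons of neocortex and hippocampus and in some forebrain glia, and interneurons and axons arriving from the thalamus keep *Mef2c*. The comparison asks which genes differ in level when *Mef2c* has been deleted early in these cells.

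Netrin-Gs are relatives of the guidance molecules called netrins, but they are tethered to the axonal membrane by a lipid anchor and do not bind the classical netrin receptors DCC and UNC5. The ligands are transmembrane proteins with leucine-rich repeats on dendrites. Netrin-G1 binds NGL-1 and netrin-G2 binds NGL-2, and these pairs mark out separate stretches of a dendrite according to which axons arrive there. NGL-3 instead binds receptor phosphatases of the LAR type. *Ntng1* is best known from thalamic neurons that project to cortex and from some cortical neurons, and *Ntng2* from cortical layers, claustrum and other forebrain neurons. The intracellular ends of the ligands bind PSD-95, the scaffold of excitatory synapses.

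The deposited values are RPKM, reads scaled by gene length and by sequencing depth, one table per mouse. For each gene the length that had been divided by differed between mice, by 5.82 times for *Lrrc4c* and by 81.6 times for *Ntng2*, because each table reused a list of 65 to 296 lengths in a fixed cycle over the genes. The whole reads behind the values were therefore worked out for each table and divided by the sample total, which gives CPM (counts per 1000000 reads of the mouse's total) with no length. The totals lay between 19326365 and 54128334 reads per mouse, and 99.8% to 99.9% of the values above 0 in each table were given a whole number of reads. Over 13740 genes, Pearson's r of log2 CPM was 0.991 to 0.994 between mice of one genotype and 0.976 to 0.979 between genotypes, as a description across genes, which are not independent. *Mef2c* had 800.3, 771.8 and 800.2 CPM in control replicates 1, 2 and 3 and 1231, 1276 and 1468 CPM in *Mef2c* cKO replicates 1, 2 and 3 (log2 fold change 0.74, SE 0.07, limma adjusted p = 1.8e-04). Reads were counted over the whole gene, exons outside the deleted part included, so this level does not check the deletion. *Emx1*, the gene that holds Cre, had 16.5, 20.3 and 18.8 CPM in the controls and 5.71, 4.97 and 5.10 CPM in the cKO mice, all below the controls. The cKO mice were heterozygous for Cre, and their level of *Emx1* was 0.29 of that in controls. The labels set no direction for this gene, and the cause of its fall was not tested. *Mef2c* cKO replicate 2 stood apart in genes of the striatum, with 1.35 CPM of the adenosine receptor *Adora2a* against 14.1 and 20.3 in the other cKO mice. Values without this mouse are given where they bear on a result.

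The 3 ligand genes encode proteins that end alike, and the last 36 coding bases before the stop codon are shown for each, with the last 4 codons, which encode the end bound by PSD-95, in capitals. They come from the gencode annotation of NCBIM37 (mm9), read 5′ to 3′.
Lrrc4c: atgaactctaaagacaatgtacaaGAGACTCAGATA
Lrrc4: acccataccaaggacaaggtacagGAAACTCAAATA
Lrrc4b: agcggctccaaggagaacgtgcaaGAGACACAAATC
Within the 12 capital bases 2 or 3 differed between any pair of genes, and over all 36 bases 11 or 12 differed. The longest run of identical coding bases was 21 between *Lrrc4* and *Lrrc4b*, 18 in the other pairs of ligands and 19 between *Ntng1* and *Ntng2*. The reads of these genes were thus counted on coding sequences that share only short runs.

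The sequences upstream of the 2 netrin-G genes were also compared, and a link between these sequences and the levels of the genes was not tested. The 250 bases before the start of each gene are given from RefSeq (GRCm38.p6, another build than that of the reads), 5′ to 3′ on the strand of the gene, with every CG pair in capitals. The first lies at chr3:110143473-110143722 and the second at chr2:29248100-29248349, both on the minus strand. Gencode (mm9) annotates 12 transcripts of *Ntng1* and 10 of *Ntng2*, and other possible starts were not examined.
Ntng1: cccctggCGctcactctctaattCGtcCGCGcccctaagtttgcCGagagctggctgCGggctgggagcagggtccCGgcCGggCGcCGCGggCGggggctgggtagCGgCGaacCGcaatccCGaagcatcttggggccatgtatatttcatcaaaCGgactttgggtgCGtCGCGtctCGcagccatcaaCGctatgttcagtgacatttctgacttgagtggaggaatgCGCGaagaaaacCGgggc
Ntng2: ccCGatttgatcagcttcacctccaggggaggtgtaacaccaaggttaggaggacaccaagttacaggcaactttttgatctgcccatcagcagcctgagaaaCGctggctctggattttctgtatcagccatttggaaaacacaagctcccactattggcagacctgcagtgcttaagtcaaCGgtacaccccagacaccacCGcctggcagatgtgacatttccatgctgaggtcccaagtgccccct
The *Ntng1* window held 25 CG pairs and the *Ntng2* window 4, where the median over 32851 RefSeq windows of this length was 6. Of all windows, 89.3% had fewer CG pairs than that of *Ntng1* and 37.8% fewer than that of *Ntng2*. The windows of *Lrrc4*, *Lrrc4b* and *Lrrc4c* held 9, 6 and 4. The consensus site of the MEF2 factors was searched on both strands and was found in none of the 5 windows, and in 2.92% of all windows. This says only that the consensus letters are not in these 250 bases.

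*Ntng1* and *Lrrc4* were lower and *Ntng2* was higher in *Mef2c* cKO cortex, while the differences in *Lrrc4c* and *Lrrc4b* were under the cut-off on size. A gene was called when its p-value from limma, adjusted by Benjamini-Hochberg over all 14578 tested genes, was below 0.05 and its absolute log2 fold change, given with its standard error (SE), above 0.3. By this rule 2 of the 5 genes fell, against a background of 7.77% of all tested genes, and 1 of 5 rose, against a background of 5.89%. In all 5 genes the 2 genotypes did not overlap. Every cKO mouse was below every control in 3 genes, as in 17.5% of all tested genes, and above in 2 genes, as in 16.3% of all tested genes.

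**Figure D1:**
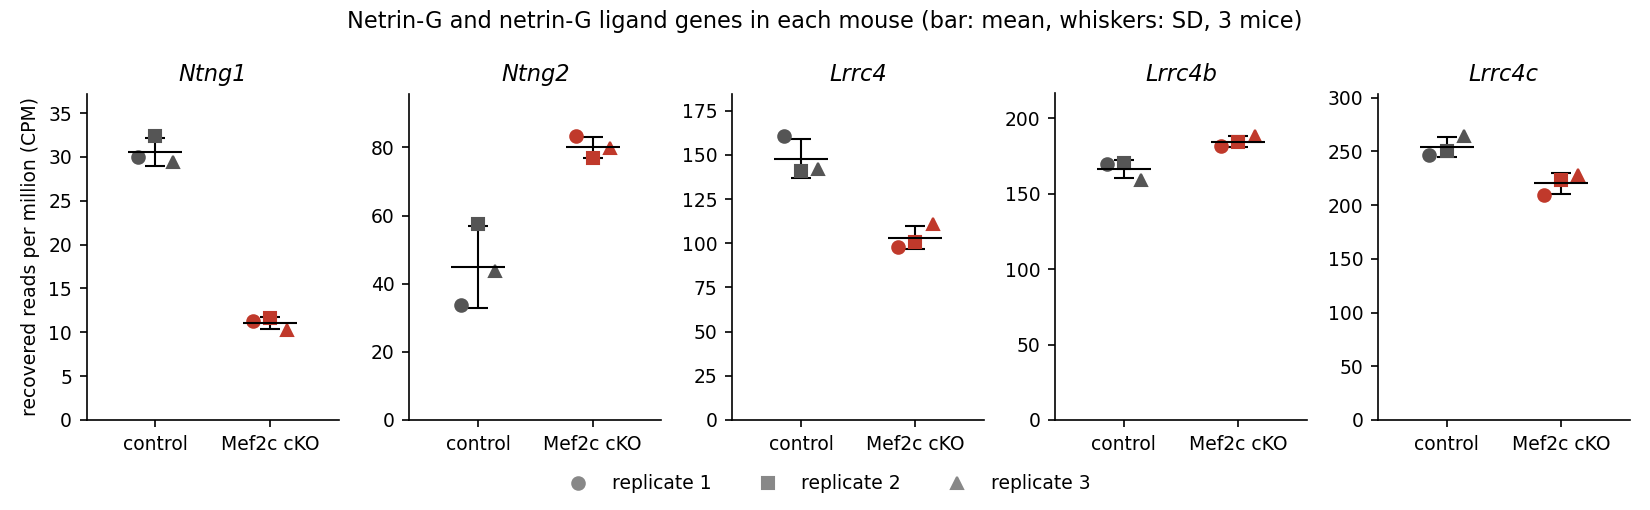
Recovered level (CPM, y axis, from 0) of each gene in each of the 6 mice, with the mean (bar) and SD (whiskers) of 3 control and 3 *Mef2c* cKO mice. The cKO mice lie at 10.3 to 11.6 CPM in *Ntng1*, below controls at 29.4 to 32.4, and at 77.0 to 83.3 CPM in *Ntng2*, above controls at 33.7 to 57.6.

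*Ntng1*, the membrane-bound ligand for NGL-1, spans chr3:109582958-109938426 of mm9 (minus strand). It had 1019, 1599 and 1514 reads, or 30.0, 32.4 and 29.4 CPM, in control replicates 1, 2 and 3. In *Mef2c* cKO replicates 1, 2 and 3 it had 370, 225 and 557 reads, or 11.3, 11.6 and 10.3 CPM. The genotypes were far apart and the mice of each were close together. Its mean fell from 30.6 ± 1.6 (SD, n = 3) to 11.1 ± 0.7 CPM (SD, n = 3) (log2 fold change -1.46, SE 0.09, limma adjusted p = 8.0e-06) and was 2.75-fold lower. By the size of its fall it ranked 146 of 1132 genes that fell. Over the 6 fits without 1 of the mice the log2 fold change stayed between -1.49 and -1.41, and it was -1.49 without *Mef2c* cKO replicate 2. In this bulk tissue, fewer cells with *Ntng1* and less *Ntng1* RNA per cell cannot be told apart.

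Marker genes of upper-layer cortical neurons and of the thalamus were set beside *Ntng1*. The upper-layer markers *Cux1*, *Cux2*, *Rorb*, *Rasgrf2* and *Calb1* fell with it, and their summed level was 548 to 640.3 CPM in controls and 198 to 242 CPM in cKO mice, in a list that is not complete here. Markers of thalamus summed to 54.7 to 65.3 CPM in controls and 49.1 to 58.3 CPM in cKO mice, which overlap. Of the 5 thalamic markers tested, *Slc17a6* fell and *Prkcd* rose. *Gbx2*, also in the list, had at most 1 read in any mouse and was too low to be tested. The part of these cells in the level of *Ntng1* was not tested.

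*Ntng2*, the ligand for NGL-2, spans chr2:29050061-29108525 of mm9 (minus strand). It had 1145, 2846 and 2252 reads, or 33.7, 57.6 and 43.7 CPM, in control replicates 1, 2 and 3. The cKO mice had 2728, 1488 and 4316 reads, or 83.3, 77.0 and 79.7 CPM. The controls were the widest spread of any group among the 5 genes, with control replicate 2 highest and control replicate 1 lowest, and all cKO mice were above them. The mean rose from 44.99 ± 12.0 (SD, n = 3) to 80.0 ± 3.2 CPM (SD, n = 3) (log2 fold change 0.86, SE 0.16, limma adjusted p = 0.0053) and was 1.82-fold higher. The log2 fold change was 0.67 without control replicate 1, 1.06 without control replicate 2 and 0.89 without *Mef2c* cKO replicate 2, with limma adjusted p-values of at most 0.022 over the 6 fits with 1 mouse left out.

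A non-coding transcript, *6530402F18Rik*, is annotated on the same strand over the first part of *Ntng2*, from 29100627 to 29108526, and shares 558 of the 3971 exonic bases of *Ntng2*. It had 11.2, 16.2 and 11.1 CPM in controls and 24.4, 25.9 and 24.7 CPM in cKO mice (log2 fold change 0.98, SE 0.14, limma adjusted p = 0.0013). Reads from the shared bases cannot be assigned to one of the 2 genes by strand, and their part in either rise was not tested.

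Marker lists of deep-layer, claustrum, subplate and striatal neurons were set beside *Ntng2*. The deep-layer sum was higher in every cKO mouse than in every control, and the claustrum, subplate and striatal sums overlapped between genotypes. Among the other neuron lists, the hippocampal sum was higher in every cKO mouse than in every control and the upper-layer sum was lower. Claustrum markers summed to 205 to 297 CPM in controls and 241 to 285 CPM in cKO mice, with *Oprk1* and *Lxn* among the 5 rising. Deep-layer markers summed to 485 to 594 CPM in controls and 641 to 708 CPM in cKO mice, with *Tbr1* and *Ntsr1* rising and *Fezf2* and *Etv1* falling among 8. The largest part of this sum was *Tbr1*, at 157 to 220 CPM in controls and 293 to 320 CPM in cKO mice. Without *Tbr1* the deep-layer sums overlap between genotypes. The 3 subplate markers summed to 35.8 to 43.6 CPM in controls and 42.6 to 82.3 CPM in cKO mice, with *Nxph4* rising. Striatal markers summed to 114, 139 and 93.4 CPM in control replicates 1, 2 and 3 and to 214, 76.6 and 186 CPM in cKO replicates 1, 2 and 3. Control replicate 2 was the highest control in striatal markers, claustrum markers and *Ntng2*, whereas the lowest control was replicate 3 in both marker sums and replicate 1 in *Ntng2*. In *Mef2c* cKO replicate 2, with the lowest striatal sum of the 6 mice, *Ntng2* was 77.0 CPM, against 57.6 CPM in the highest control. The part of these cells in the level of *Ntng2* was not tested.

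Within a mouse, the ratio of *Ntng2* to *Ntng1* reads does not depend on the sample total. It was 1.12, 1.78 and 1.49 in control replicates 1, 2 and 3 and 7.37, 6.61 and 7.75 in *Mef2c* cKO replicates 1, 2 and 3. The lowest cKO ratio was thus well above the highest control ratio. On the log2 scale the ratio averaged 0.52 ± 0.33 in controls and 2.85 ± 0.12 in cKO mice (SD, n = 3 in each), a difference of 2.33. A two-sided exact permutation test gave p = 0.1, and groups of 3 and 3 cannot give less. *Ntng2* made up 52.9% to 64.0% of all netrin-G reads in controls and 86.9% to 88.6% in cKO mice. The widest exact (Clopper-Pearson) 95% intervals were 50.8% to 55.0% in control replicate 1 and 85.2% to 88.4% in cKO replicate 2, and such intervals cover counting error only. The reads of both netrin-G genes summed to 63.6, 89.99 and 73.1 CPM in controls and 94.6, 88.6 and 90.03 CPM in cKO mice, and these overlap.

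**Figure D2:**
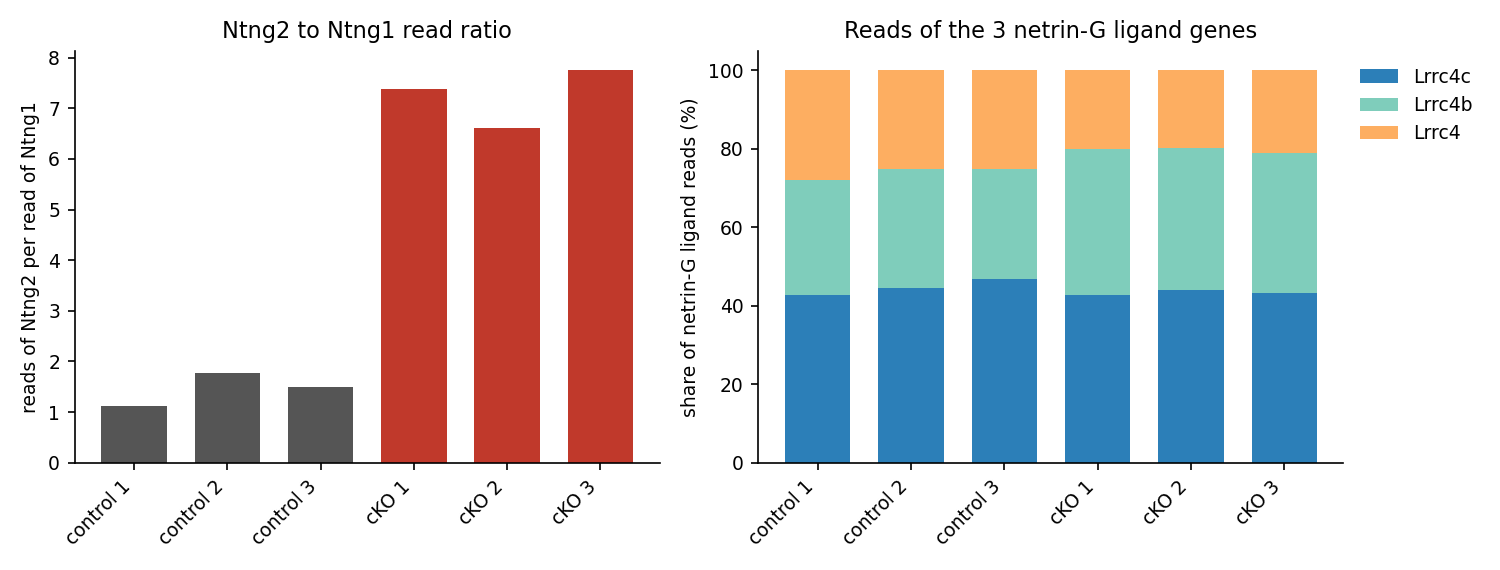
Left, reads of *Ntng2* per read of *Ntng1* in each mouse, from 1.12 to 1.78 in controls and from 6.61 to 7.75 in *Mef2c* cKO mice. Right, the share of each netrin-G ligand gene (%, stacked to the whole) in the reads of the 3 genes per mouse, with *Lrrc4* at 25.1% to 27.8% in controls and 19.8% to 21.0% in *Mef2c* cKO mice.

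*Lrrc4c*, which encodes NGL-1, the dendritic receptor of netrin-G1, spans chr2:96158326-97471823 of mm9 (plus strand). Its level was 246.4, 250.5 and 264.3 CPM in controls and 209.5, 223.3 and 228.0 CPM in cKO mice, all below the controls. The log2 fold change was -0.20 (SE 0.06, limma adjusted p = 0.040), with a 95% interval from -0.33 to -0.07. It passed the threshold on p and not the one on size, and its adjusted p-value rose above 0.05 with any of the 6 mice left out, the lowest being 0.052. The RNA of both genes of the netrin-G1 and NGL-1 pair was thus lower in every cKO mouse than in the controls, that of *Ntng1* by far more. These are RNA levels in cortical tissue, and the proteins on axons and dendrites were not measured. There were 7.74 to 8.997 reads of *Lrrc4c* per read of *Ntng1* in controls and 18.5 to 22.2 in cKO mice.

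*Lrrc4*, which encodes NGL-2, the receptor of netrin-G2, spans chr6:28611831-28781747 of mm9 (minus strand). Its level was 161, 141 and 142 CPM in controls and 98.1, 101 and 111 CPM in cKO mice, with no overlap. The mean fell from 147.8 ± 11.1 (SD, n = 3) to 103.2 ± 6.6 CPM (SD, n = 3) (log2 fold change -0.52, SE 0.07, limma adjusted p = 0.0011) and was 1.43-fold lower. It was called in all 6 fits with 1 mouse left out, at log2 fold changes of -0.57 to -0.46. In the netrin-G2 and NGL-2 pair the RNA of the genes thus changed in opposite directions, *Ntng2* up and *Lrrc4*, which was the higher of the pair in controls, down. The reads of *Lrrc4* per read of *Ntng2* were 4.77, 2.45 and 3.25 in controls and 1.18, 1.31 and 1.39 in cKO mice. *Lrrc4* lies within *Snd1*, a gene on the opposite strand that encodes a nuclease and shares no exonic base with it. *Snd1* had 64.1, 70.2 and 71.3 CPM in controls and 62.2, 61.3 and 63.7 CPM in cKO mice (log2 fold change -0.13, limma adjusted p = 0.20). The library kept the strand, but the strand setting of the count is not given in the sources used here.

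*Lrrc4b*, which encodes NGL-3, the ligand that binds LAR-type phosphatases rather than netrin-Gs, spans chr7:51684388-51718721 of mm9 (plus strand). It had 169.9, 170.2 and 159.3 CPM in controls and 181.4, 184.3 and 188.3 CPM in cKO mice. The cKO mice lay just above the controls (log2 fold change 0.15, SE 0.05, limma adjusted p = 0.094), with a 95% interval from 0.03 to 0.27. It was the only ligand gene of the 3 whose values were higher in cKO mice, and it passed neither threshold. As a share of the reads of the 3 ligand genes, *Lrrc4b* made up 28.2% to 30.3% in controls and 35.7% to 37.1% in cKO mice, *Lrrc4* 25.1% to 27.8% and 19.8% to 21.0%, and *Lrrc4c* 42.7% to 46.7% and 42.8% to 43.9%. The 3 genes summed to 562 to 577 CPM in controls and 489 to 527 CPM in cKO mice.

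Levels of the genes were compared with each other as CPM per kilobase of annotated exon (gencode, mm9), which takes lengths of 2929 bases for *Lrrc4b* to 4626 bases for *Lrrc4c* from an annotation other than the one used in counting. In controls the order was *Lrrc4b* (56.8 ± 2.1 CPM per kilobase, SD, n = 3), *Lrrc4c* (54.8 ± 2.0), *Lrrc4* (36.9 ± 2.8), *Ntng2* (11.3 ± 3.0) and *Ntng1* (7.0 ± 0.4). The values of *Lrrc4b* and *Lrrc4c* overlapped between mice, and the other neighbours in this order did not. In cKO mice the order was the same, at 63.0 ± 1.2, 47.6 ± 2.1, 25.8 ± 1.7, 20.1 ± 0.8 and 2.5 ± 0.2 CPM per kilobase (SD, n = 3), with no overlap between neighbours. *Ntng2* and *Lrrc4* lay close to each other there, at 19.4 to 21.0 and 24.5 to 27.6 CPM per kilobase.

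Genes of some of the proteins that bind the ligands fell. Of 8 partners of the ligands analysed here, 3 fell and none rose (background 7.77% and 5.89%), and the median log2 fold change of the 8 was -0.21, where it was 0.01 over all tested genes. *Whrn*, which encodes the PDZ scaffold whirlin, had 50.7 to 61.7 CPM in controls and 18.5 to 23.8 CPM in cKO mice (log2 fold change -1.42, SE 0.11, limma adjusted p = 3.2e-05). Among the LAR-type phosphatases that bind NGL-3, *Ptprf* fell from between 73.3 and 82.5 CPM to between 36.4 and 49.1 CPM (log2 fold change -0.83, SE 0.11). *Ptprd* changed by -0.65 (SE 0.12) on the log2 scale, and *Ptprs* had -0.19 (SE 0.06, limma adjusted p = 0.049), which is not past the cut-off on size. *Lrrc4b*, the gene of their ligand NGL-3, had 0.15 and was not called. *Dlg4*, the gene of PSD-95, had 767.9, 767.2 and 757.4 CPM in controls and 634.7, 640.6 and 700.4 CPM in cKO mice, a log2 fold change of -0.22 that passed the threshold on p (limma adjusted p = 0.037) and not the one on size. *Dlg1*, *Dlg2* and *Dlg3*, its relatives, had -0.21, -0.16 and 0.15 and were not called.

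**Figure D3:**
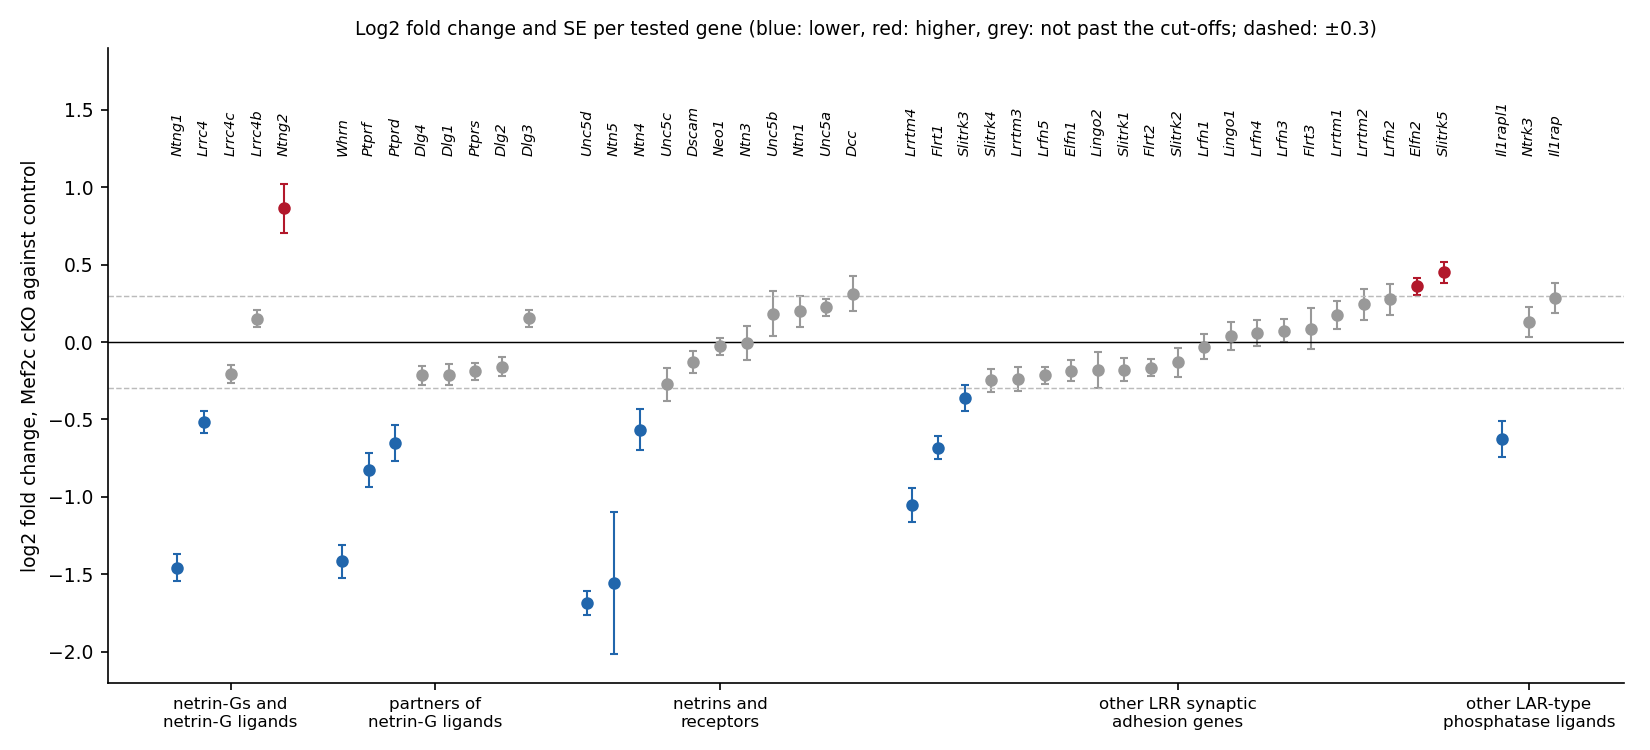
Log2 fold change (y axis, *Mef2c* cKO against control) with its standard error for the 5 genes and for the tested genes of 4 related lists, 1 point per gene. Blue points passed the cut-offs and were lower, red points passed and were higher, grey points did not pass, and dashed lines mark 0.3 in each direction. *Ntng1* at -1.46 and *Ntng2* at 0.86 are the lowest and highest of the 5 genes.

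The netrins proper and their receptors, which share a name and a domain with the netrin-Gs, gave 3 falling and no rising genes of 11 (background 7.77% and 5.89%), with a median log2 fold change of -0.03. *Unc5d*, a receptor of the UNC5 family, had 88.3 to 97.2 CPM in controls and 26.2 to 30.9 CPM in cKO mice (log2 fold change -1.68, SE 0.08, limma adjusted p = 2.6e-06). *Ntn4*, a secreted netrin, changed by -0.57 (SE 0.13) and was not called without control replicate 2. *Ntn5* changed by -1.56 with a standard error of 0.46, and it was called in 1 of 6 fits with 1 mouse left out. *Dcc*, the netrin receptor that netrin-Gs do not bind, had 51.0 to 61.9 CPM in controls and 63.2 to 84.7 CPM in cKO mice and was not called (limma adjusted p = 0.10). The other 7 genes had log2 fold changes between -0.27 and 0.22. Without control replicate 2, *Unc5d* alone of the list was called.

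Other synaptic adhesion genes with leucine-rich repeats, the protein fold that the ligands have, gave 3 falling and 2 rising genes of 21 tested (background 7.77% and 5.89%), with a median log2 fold change of -0.13. *Lrrtm4*, whose product binds heparan sulfate proteoglycans on axons, had 114 to 150 CPM in controls and 60.8 to 70.4 CPM in cKO mice (log2 fold change -1.05, SE 0.11, limma adjusted p = 2.1e-04). *Flrt1* changed by -0.68 (SE 0.07) and *Slitrk3*, a ligand of PTPδ at inhibitory synapses, by -0.36 (SE 0.08), and *Slitrk3* was not called without control replicate 1 or without *Mef2c* cKO replicate 1. *Slitrk5* rose by 0.45 (SE 0.07) and *Elfn2*, which binds metabotropic glutamate receptors across the synapse, by 0.36 (SE 0.06) on the log2 scale. *Slitrk6* was too low to be tested, and the other 16 genes had log2 fold changes between -0.25 and 0.28. Of the 3 other ligands of LAR-type phosphatases, *Il1rapl1* fell from 52.2 to 69.5 CPM in controls to 34.6 to 43.8 CPM in cKO mice (log2 fold change -0.62, SE 0.12). *Il1rap* and *Ntrk3* had 0.28 and 0.13 and were not called, and the list's median was 0.13.

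For each of the 3 called genes, the 5 tested genes with the most alike profile were taken by Euclidean distance between log2 CPM values centred on the control mean, over the 6 mice and 14577 other genes. For *Ntng1* these were *Susd5*, *Afap1l1*, *Crhr1*, *Fhod3* and *Proser2*, at distances of 0.19 to 0.25 and with log2 fold changes of -1.42 to -1.56. *Crhr1*, the receptor of corticotropin-releasing hormone, had 37.6 to 40.9 CPM in controls and 12.7 to 13.5 CPM in cKO mice. For *Ntng2* they were *Nsun7*, *Cdh24*, *Ddit4*, *Slc26a4* and *Tnfrsf8*, at distances of 0.19 to 0.35 and with log2 fold changes of 0.78 to 0.94. *Nsun7* had 7.85, 11.4 and 9.35 CPM in control replicates 1, 2 and 3, the same order of controls as in *Ntng2*, and 17.0 to 17.9 CPM in cKO mice. For *Lrrc4* they were *Gpr158*, *Zfp365*, *Ankrd34c*, *Ppp1r9a* and *Lrrc8b*, at distances of 0.08 to 0.12 and with log2 fold changes of -0.49 to -0.55. *Ppp1r9a*, which encodes the spine protein neurabin, had 394 to 441 CPM in controls and 279 to 323 CPM in cKO mice. All of these genes passed the cut-offs in the direction of the gene they resemble, as their choice by likeness brings about.

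The remaining marker lists, of 4 to 6 genes each, describe the tissue. Summed levels of pyramidal neuron markers were 4313 to 4938 CPM in controls and 4374 to 5239 CPM in cKO mice, with *Emx1*, the gene that holds Cre, falling and *Neurod6* rising among 4. Most of this sum was *Camk2a* and *Slc17a7*, with control means of 3346 and 1191 CPM, and neither was called. Interneuron markers summed to 685 to 788 and 726 to 777 CPM, with *Pvalb* falling and *Sst* rising among 6. Hippocampal markers summed to 145 to 173 CPM in controls and 215 to 348 CPM in cKO mice, with *Wfs1* and *Fibcd1* among the 5 rising, and in the striatal list *Drd1* alone of 5 rose. Astrocyte markers summed to 3652 to 3935 and 3240 to 3497 CPM, with *Aldh1l1* falling and *Gfap* and *Aqp4* rising among 5. Most of this sum was *Slc1a2*, at 3302 to 3578 CPM in controls and 2739 to 3014 CPM in cKO mice, which was not called. *Gja1* was not called either and was higher in every cKO mouse than in every control. The median log2 fold change of the astrocyte list was 0.25, so the lower sum does not describe most of its genes. Oligodendrocyte markers summed to 2711 to 4481 CPM in controls and 4371 to 5614 CPM in cKO mice, microglia markers to 174 to 192 and 157 to 167 CPM and endothelial markers to 203 to 224 and 196 to 205 CPM, and none of the 5 genes in each of these lists passed the cut-offs. The part of these lists in the levels of the netrin-G genes was not tested.

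Over the settings tried on the recovered reads and the fits with mice left out, the log2 fold change of *Ntng1* stayed between -1.49 and -1.39, *Ntng2* between 0.64 and 1.06 and *Lrrc4* between -0.57 and -0.42, and each was called in every one. The deposited RPKM values as they stand, with the lengths that differ between mice, gave -3.41, 1.83 and 0.71 for these genes, with standard errors of 1.64 to 1.66 and no call.

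**Figure D4:**
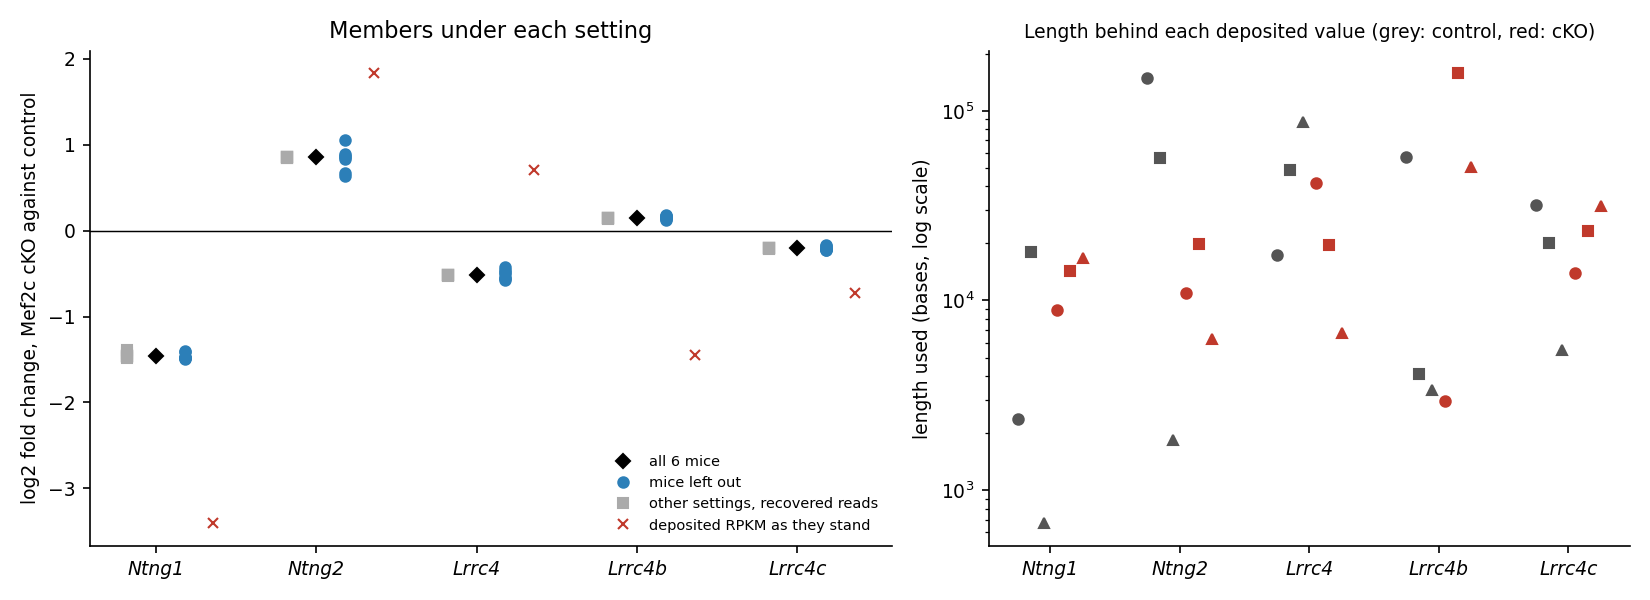
Left, log2 fold change of each gene in all 6 mice (diamonds), with mice left out (circles), under other settings on recovered reads (squares) and from the deposited RPKM as they stand (crosses). Right, the length (bases, log axis) by which the deposited value of each gene was divided in each mouse, with replicates 1, 2 and 3 as circles, squares and triangles, which spans 670 to 18075 bases for *Ntng1*.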

How the data were processed

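RNA-seq data of 6 mice, 3 of each genotype, were analysed, with genotypes and replicate numbers taken from the labels. The authors selected polyA RNA, made directional libraries, aligned reads to mm9 (TopHat and Bowtie), obtained gene counts by HTSeq and divided by length and total, and they deposited these RPKM values. Versions are not given in the sources used here. In each table of deposited RPKM the lengths repeat in a fixed cycle over genes ordered by Entrez ID as text. Whole reads were recovered from these cycles for 21571 genes in every mouse, and 92 unnamed rows per table were left out. Totals were 19326365 to 54128334 reads per mouse.

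CPM were reads over the recovered total. log2(CPM + 0.1) was compared with limma 3.58.1 (R 4.3.3, lmFit and eBayes with a trend), in genes that exceeded 0.5 CPM in all mice of either genotype. A recovered value in at least 2 mice of each genotype was also required. This pseudocount understates changes of low genes. Both steps were run on simulated data. For the fit, the same spread beyond counting error was set for all genes, so genes that vary more between mice were not covered. The ratio was compared by an exact permutation test (Python 3.11.15, scipy 1.17.1, numpy 2.4.6, matplotlib 3.10.9). The genes named are the 5 members, *Mef2c* and *Emx1*, genes annotated over a member, list genes past the cut-offs and, for each called member, the 5 most alike genes, and others named were chosen after their values were seen. Members and gene lists were chosen with earlier results of these data known. From the upper-layer markers and from the partners, 1 gene each is not reported here, and the counts and sums leave it out. Alternatives were other pseudocounts, filters, scalings, weights, a replicate block, mice left out and the deposited RPKM.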

Additional observations from a re-analysis of the deposited data

How the results depend on the processing

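With the deposited RPKM as they stand, in which the length divided by differs between mice, 14 genes of 7964 were called in place of 1991 of 14578, and no gene of the 4 lists (0 in each). The log2 fold changes were then -3.41 for *Ntng1* (limma adjusted p = 0.54), 1.83 for *Ntng2* (0.85), 0.71 for *Lrrc4* (0.95), -1.45 for *Lrrc4b* (0.90) and -0.72 for *Lrrc4c* (0.95). The signs of *Lrrc4* and *Lrrc4b* were the reverse of those in recovered reads. Over the other settings on recovered reads, which kept all 6 mice, the number of genes called was 1690 to 2024.

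Leaving out each mouse in turn gave 1651 to 1859 called genes, and leaving out both 14-week mice gave 1468. The log2 fold changes were then -1.49 to -1.41 for *Ntng1*, 0.67 to 1.06 for *Ntng2*, -0.57 to -0.46 for *Lrrc4*, 0.12 to 0.17 for *Lrrc4b* and -0.23 to -0.17 for *Lrrc4c*, and the ratio of *Ntng2* to *Ntng1* differed by 2.15 to 2.48 (log2). Without the 14-week mice they were -1.49, 0.64, -0.42, 0.18 and -0.19. The partners of the ligands had 3 genes called in each of these fits, the netrins and receptors 1 to 3, with 1 without control replicate 2, the leucine-rich repeat genes 4 to 6 and the other phosphatase ligands 1 to 2, with 2 without *Mef2c* cKO replicate 1 or without both 14-week mice, and the cause of these differences was not tested.

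Mice of the same replicate number were not more alike than others. Deviations from the genotype means correlated with r of -0.18 to -0.08 over genes between same-numbered mice and of -0.03 to 0.12 between others. Replicate 1 was 14 weeks old in both genotypes, and deviations from a mean of 3 mice are tied to each other. These correlations therefore cannot settle whether the mice were paired. With the replicate number as a block, 1690 genes were called. *Ntng1*, *Ntng2* and *Lrrc4* stayed called, with limma adjusted p-values of 1.6e-04, 0.011 and 0.0073, the adjusted p of *Lrrc4c* was 0.082, and *Slitrk3* and *Ntn5* were no longer called. The ratio differed by 2.33 in the pairing by number, with an exact sign-flip p = 0.25, the smallest that 3 pairs allow. In genes with few reads the counting error of those reads limits the precision.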
